A study of Mus musculus with 76 samples.

Results

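The cells described here are Sst-expressing interneurons of the newborn mouse hippocampus, compared between animals with mutant and with wild-type gephyrin. They were chosen by their own RNA: of the 62 kept cells without a contamination mark, those with Sst at 10 CPM or more were taken (CPM is a gene's count scaled to a total of 1000000 counts in the cell), which gave 21 cells. Of these, 11 carried the gephyrin change S268/270A (called Mut) and 10 were wild type (WT). The WT cells were 3 from females and 7 from males, and the Mut cells were 7 from females and 4 from males.

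All cells were neurons of the dorsal CA1 pyramidal layer of pups at postnatal day 4, drawn into a patch pipette from acute slices and sequenced singly (Patch-seq, with Nextera XT libraries). Both genotypes carried the Nkx2.1-Cre driver and the Ai14 reporter, so that tdTomato marked cells whose ancestors in the medial ganglionic eminence (MGE) expressed Nkx2.1. The series describes such cells as enriched for putative parvalbumin basket cells. The Mut gephyrin has alanine in place of the serines at positions 268 and 270. The labels name no animal, litter or slice, so how many mice stand behind the 21 cells is not known. For the tests of genes the cells were therefore added into 4 sums, 1 for each genotype and sex, and these tests did not count cells as replicates. The intervals on shares of cells and the outlier flags below do use single cells. Counts were added unscaled, so deeper cells weigh more. WT female cell 9 gave 9486250 of the 18954100 counts of the WT female sum, and many fold changes below are therefore also given without it.

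Somatostatin, the product of Sst, is a peptide that interneurons release together with GABA, and Sst cells of CA1 mainly contact the dendrites of pyramidal neurons. Gephyrin, the product of Gphn, forms a lattice beneath inhibitory synapses that anchors the receptors for GABA and glycine, and it has a second role as an enzyme that completes the molybdenum cofactor. Phosphorylation of gephyrin by kinases such as ERK and GSK3β is known to alter the size and density of its clusters. In the first postnatal days interneurons are still settling into their layers, and GABA can still depolarize its target cells.

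The Sst promoter is the textbook example of a cyclic AMP response element (CRE), the site at which CREB binds, and it is shown because Sst is the gene that defines these cells. The stretch below lies at chr16:23890874-23890903 on the minus strand of GRCm38.p6 (RefSeq), is printed 5′ to 3′, and has the CRE in capitals. The CRE ends 40 bases before the annotated start of the gene.
Sst promoter: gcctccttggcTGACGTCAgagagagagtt
The letters TGACGTCA read the same on both strands, and 588 of 32851 mouse promoters of 300 bases hold them (1.79%). The match is a description of sequence, and no binding was measured.

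The level of Sst varied widely among the chosen cells. In WT females it was 365 CPM in cell 3, 135 in cell 5 and 157 in cell 9. In WT males the 7 cells stood at 12.1, 19, 22.5, 44.3, 55.0, 491 and 609 CPM. The Mut female cells stood at 15.8, 50.2, 64.1, 76.7, 332, 924 and 2287 CPM, and the Mut male cells at 57.4, 434, 464 and 10062 CPM. The 2 genotypes overlapped, with medians of 332 CPM in Mut and 95 CPM in WT. In the deposited TPM values, which are scaled by transcript length, the medians were 776 and 223. Since Sst chose the cells, its levels are given as a description with no test. Mut male cell 7 held 93.2% of the Sst counts of its sum and Mut female cell 22 held 74.7%. Just above the threshold were WT male cell 12 (12.1 CPM) and Mut female cell 14 (15.8 CPM), and just below it were WT male cell 17 (9.23 CPM) and Mut male cell 16 (7.23 CPM).

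**Figure D1:**
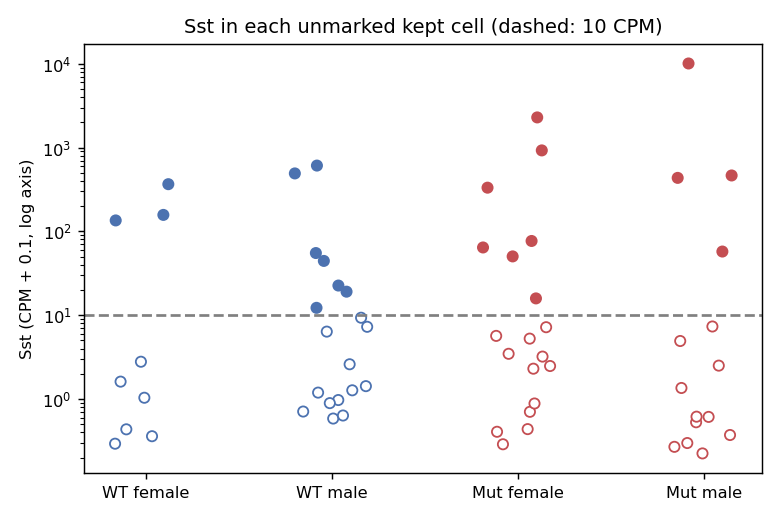
Sst in each of the 62 unmarked kept cells by genotype and sex, as CPM plus 0.1 on a log axis; filled points are the 21 chosen cells, open points the others, and the dashed line is 10 CPM. Filled points of WT and Mut overlap, and the highest lies at 10062 CPM in a Mut male cell.

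The share of cells reaching the threshold was 32.4% in Mut (11 of 34, exact 95% binomial interval 17.4 to 50.5) and 35.7% in WT (10 of 28, 18.6 to 55.9), intervals that cover counting error only. Most members carried other transcripts of MGE interneurons. Lhx6, the transcription factor that specifies them, was at 10 CPM or more in 20 of 21 cells, as was Gad1, which makes GABA. Npy, the neuropeptide Y gene, was there in 19 cells. Pvalb, which marks mature basket cells, was there in 0 of 21. WT male cell 12 had Lhx6, Gad1 and Gad2 all below 10 CPM, which goes against its label as an MGE interneuron.

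Transcripts of other cell types were present too. Mut female cell 20 had 10 of the 12 microglia markers at 10 CPM or more, with a summed level of 7815 CPM, and WT male cell 6 had 8 of them, with 1660 CPM, although neither carries a contamination mark. Pyramidal neuron markers summed to 5.41 to 1149 CPM in Mut cells (median 337) and 7.47 to 1379.8 CPM in WT cells (median 307). Astrocyte and radial glia markers summed to 4.59 to 3013 CPM in Mut (median 277) and 20.1 to 1806 CPM in WT (median 596). Red blood cell markers had medians of 347 CPM in Mut and 1437 CPM in WT. A pair of highly abundant features also moved with genotype: Lars2, a mitochondrial leucyl-tRNA synthetase, and the pseudogene Gm19220 together took 0.608% to 11.4% of a Mut cell's counts (median 2.25%) and 2.47% to 29.6% of a WT cell's (median 12.4%). In the other unmarked cells the medians were 3.46% and 3.94%. The part of these differences in the results below was not tested. Depth ranged from 3543750 to 11407200 counts a cell, with medians of 7152610 in Mut and 4700185 in WT, and 10763 to 13530 genes had a count.

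The first comparison asked which genes differed between Mut and WT Sst cells over both sexes. No gene passed the test: of 12887 genes, 0 were called higher and 0 lower (percent called 0 in each direction, adjusted p under 0.05, edgeR quasi-likelihood test, Benjamini-Hochberg adjustment). The lowest adjusted p was 0.991. At an unadjusted p under 0.05 there were 233 higher (1.81%) and 208 lower (1.61%). Unadjusted p-values of single genes below are description only. Many of these genes were picked by the genotype difference itself or after their values were seen. DESeq2 on the same sums called 515 higher and 364 lower. The fit has 1 residual degree of freedom per gene, and the biological coefficient of variation between sums was 1.20. Without WT female cell 9, edgeR called 3 genes higher and 3 lower, and without the 3 cells that carry microglia markers or lack interneuron genes (Mut female cell 20, WT male cells 6 and 12) it called 0 and 1.

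The size of the differences was therefore described within each sex, as the log2 ratio of the Mut to the WT sum after adding 1 CPM, with CPM scaled by TMM here and for all sums below. At least 4-fold higher in Mut in both sexes were 654 of 12887 genes (5.07%), and 419 were at least 4-fold lower (3.25%). The sexes pointed the same way for 3126 genes above 0 (24.3%) and 3270 below 0 (25.4%), and the remaining 6491 pointed in opposite directions. By cells, 108 genes (0.838%) reached 10 CPM in a share of Mut cells at least 50 percentage points above that of WT cells, and 73 (0.566%) in a share at least 50 points below. In no gene did all Mut cells lie above all WT cells or below them (0% each). The counts by cells rest on few cells: without Mut male cell 7, 236 genes were 50 points higher, and without WT male cell 9, 46 were 50 points lower. Leaving out a cell also makes its group smaller, which changes which counts of cells reach 50 points. How much of each change comes from that was not tested. Without the 3 cells just named, 178 genes were 50 points higher.

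**Figure D2:**
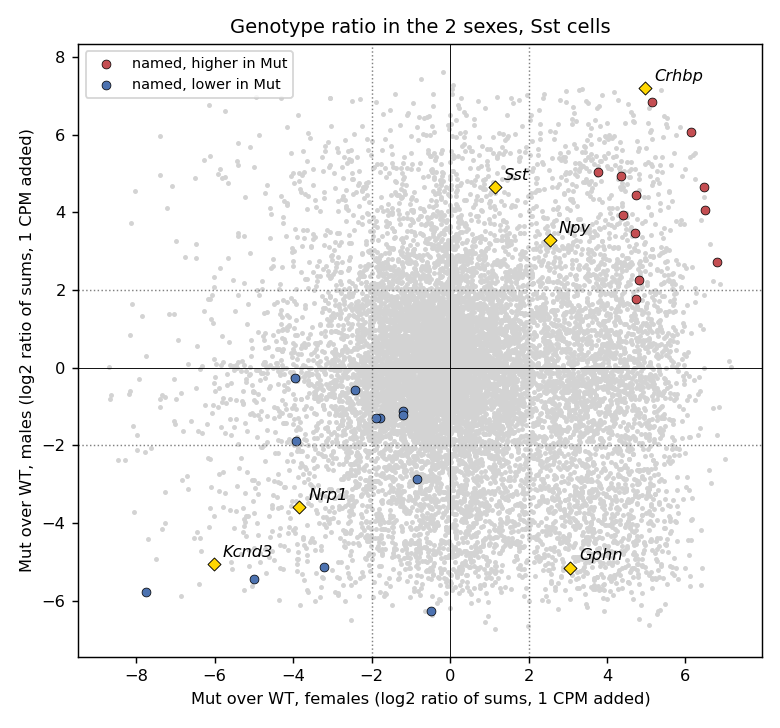
Log2 ratio of Mut to WT sums (1 CPM added) in females (horizontal) and males (vertical) for the 12887 genes tested in Sst cells; coloured circles are the 12 genes named per direction, diamonds other genes of the text, and dotted lines mark 4-fold. Points fill all 4 quadrants; Npy and Crhbp lie in the upper right, Kcnd3 and Nrp1 in the lower left, and Gphn in the lower right.

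Thumpd1 (chromosome 7, 119715093 to 119720798 of GRCm38), a cofactor of RNA acetylation, was at 10 CPM or more in 10 of 11 Mut and 1 of 10 WT cells. Its lowest, median and highest values were 2.17, 164 and 797 CPM in Mut cells and 0, 1.18 and 120 CPM in WT cells. The exceptions were Mut male cell 19, the lowest of the Mut cells, and WT male cell 6, which held 90.4% of the WT counts and is among the cells with microglia markers. The fit gave a log2 fold change of 5.76 (SE 1.80, edgeR unadjusted p = 0.00338), and 7.58 without WT male cell 6. Mrpl4 (chromosome 9, 21002738 to 21008839), a protein of the mitochondrial ribosome, was found in 8 Mut cells and 0 WT cells, with no WT cell above 4.33 CPM and a Mut median of 197 CPM (log2 fold change 6.67, SE 1.89).

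Bscl2, which encodes the lipid droplet protein seipin, was found in 10 Mut and 2 WT cells, with Mut sums of 136 (females) and 359 CPM (males) and WT sums of 4.17 and 31.7 CPM (4.26, SE 1.51). Xpnpep1, a cytosolic aminopeptidase, was found in 10 and 2 cells, with medians of 207 and 5.01 CPM. Dhdds, a subunit of the enzyme that makes the dolichol backbone for glycosylation, was found in 7 Mut and 0 WT cells, with no WT cell above 8.19 CPM. Aimp1, a scaffold of the aminoacyl-tRNA synthetase complex, was likewise found in 7 and 0 cells, with Mut sums of 41.5 and 55.5 CPM. Fam120b was found in 7 and 0, and Dpp3, a dipeptidyl peptidase, Papss1, which makes the sulfate donor of the cell, and Svbp, the partner of the tubulin-trimming vasohibins, each in 8 and 1. Med15, a subunit of the Mediator complex, was found in 9 and 2. Tmem254c was found in 8 and 1, but it has near-identical copies among which reads can be split.

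Among the genes lower in Mut cells, Zfp637 (chromosome 6, 117841180 to 117845956), a zinc finger gene, was at 10 CPM or more in no Mut cell. All 11 Mut cells lay at or below 2.14 CPM (lowest 0, median 0.280), while WT cells ranged from 0.262 to 438 CPM (median 74.0), with 6 of 10 at 10 CPM or more. Cells of the 2 genotypes overlapped only at low values, where 4 WT cells lay under 10 CPM. The Mut sums were 0.425 (females) and 0.402 CPM (males), and the WT sums 308 and 75.4 CPM, a log2 fold change of -8.53 (SE 2.08, edgeR unadjusted p = 3.02e-04). WT female cell 9 held 53.7% of the WT counts, and without it the fold change was -7.18. Mon2 (chromosome 10, 122992060 to 123076505), a scaffold of Golgi trafficking, had the same form: 0 of 11 Mut and 6 of 10 WT cells, with a highest Mut value of 6.09 CPM and a WT median of 69.3 CPM (-6.75, SE 3.03).

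Sidt2, a lysosomal membrane protein, was found in 2 Mut and 8 WT cells, with medians of 0.801 and 253 CPM (-2.93, SE 1.25, with -5.65 without Mut female cell 20 and -1.89 without WT female cell 9). Enc1, an actin-binding protein of developing neurons, was found in 3 and 9 cells, with medians of 1.22 and 74.2 CPM, but its male sums were close, 105 CPM for Mut and 126 CPM for WT. Ss18l1, a calcium-responsive coactivator of neuronal chromatin complexes, was found in 1 and 7 cells, with medians of 0.459 and 43.5 CPM. Armc6 was also found in 1 and 7, with medians of 0.612 and 115 CPM, and Mut female cell 22 held 98.0% of its Mut counts. Its fold change of -3.75 was -0.73 without WT female cell 5 and -6.79 without Mut female cell 22. Armt1 and Vmn2r79 were found in 3 and 9 cells, Stx4a and Vmn1r13 in 2 and 8, and Acnat1 and Rbm47 in 1 and 7. In each genotype Acnat1 was highest and lowest in the cells whose Lars2 and Gm19220 share of counts was highest and lowest. In WT it was 37.9 CPM in male cell 3 (share 29.6%) and 2.28 CPM in female cell 9 (2.47%). In Mut it was 11.6 CPM in female cell 1 (11.4%) and 0.509 CPM in female cell 21 (0.608%). Stx4a, Vmn1r13 and Rbm47 were lowest in the same cells as Acnat1. They stood at 3.93, 1.93 and 2.85 CPM in WT female cell 9, and at 1.01, 0.768 and 0.637 CPM in Mut female cell 21. Vmn1r13 was also highest in Mut in female cell 1 (21.3 CPM), but the other highest values of these genes lay in other cells. Armt1 was also lowest in WT in female cell 9 (2.11 CPM), but highest in male cell 15 (90.9 CPM, share 15.5%). A link with that share was not tested. For 4 of the 12 named genes every sum lay under 25 CPM, so cells sat close to the 10 CPM line. The vomeronasal receptor genes belong to a large multigene family whose reads can be shared.

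**Figure D3:**
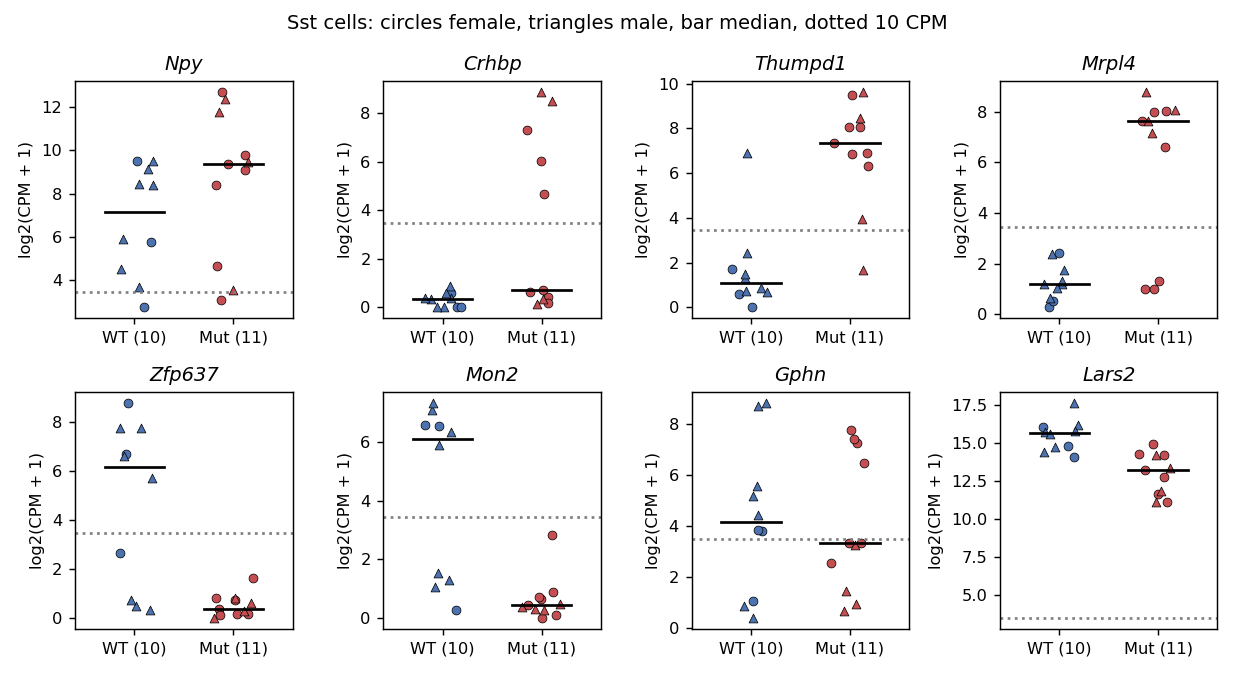
Values of 8 genes in each Sst cell as log2(CPM + 1), WT (10 cells) beside Mut (11 cells), circles for females and triangles for males; bars are medians and the dotted line is 10 CPM. Mrpl4 has 8 Mut cells and 0 WT cells above the line, Zfp637 and Mon2 have 6 WT cells and 0 Mut cells, and Gphn has cells of both genotypes on both sides.

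Npy (chromosome 6, 49822710 to 49829507), the neuropeptide Y gene of the Sst lineage list, was 256 CPM in WT females (95% Poisson interval 248 to 264), 265 in WT males, 1501 in Mut females and 2577 in Mut males. Over cells it ranged from 5.77 to 733 CPM in WT (median 196) and from 7.64 to 6591 CPM in Mut (median 657). The cells overlapped, and nearly equal numbers were at 10 CPM or more, 10 of 11 Mut and 9 of 10 WT. The difference lay in the level, in the medians and in the highest cells, and not in that share. The fitted log2 fold change of 2.92 (SE 0.89, edgeR unadjusted p = 0.00265) became 1.84 without Mut female cell 22, which held 48.2% of the Mut counts.

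Crhbp, which encodes a secreted protein that binds corticotropin-releasing hormone and marks a subset of Sst cells, was singled out after its values were seen. It was at 24.4, 64.9, 157, 362 and 468 CPM in 5 Mut cells, at or below 0.663 CPM in the other 6, and at or below 0.867 CPM in all 10 WT cells. A count of 0 of 10 WT cells allows a share of up to 30% by the limit of 3 counts for a count of 0, and 30.9% by the exact binomial interval, for counting error only. The sums were 0.331 and 0.269 CPM in WT females and males and 41.0 and 187 CPM in Mut (log2 fold change 8.21, SE 2.55). Both sexes had Crhbp cells, 3 of 7 Mut females and 2 of 4 Mut males.

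Across the somatostatin lineage list, 8 of 15 tested genes (of 17) stood higher in Mut in both sexes and 2 lower, with a median log2 fold change of 0.66 against 0.03 over all genes; Sst itself is among them, and without it 7 of 14 were higher and 2 lower (median 0.63). With any 1 cell left out, the median ran from 0.48 to 1.23. That range includes Sst, the gene that chose the cells, and no range without it is given, so it is description only. Reln, the extracellular matrix protein reelin, had a fold change of 1.90 that turned to -0.90 without Mut male cell 7. Pnoc, the nociceptin precursor, was found in 6 Mut and 5 WT cells (0.84, SE 1.69). Nxph1, a neurexin ligand, was found in 10 Mut and 6 WT cells (0.66, SE 0.96). Grin3a, an NMDA receptor subunit of Sst cells, was found in 7 Mut and 4 WT cells (3.16, SE 2.47), with the ratio near 0 in males (0.35). Of 15 tested genes of peptide processing, 4 were higher and 1 lower in both sexes, and 10 were split (median 0.36). Cpe, which trims peptide precursors, was at 10 CPM or more in all 21 cells, with medians of 1216 CPM in Mut and 1106 CPM in WT (0.13, SE 0.82). Pcsk1n, an inhibitor of the convertase PC1, had a fold change of 0.92 (SE 1.15), and Scg2, a granin of dense-core vesicles, of 0.32 (SE 1.16). Of the somatostatin and NPY receptors only 3 of 8 had enough counts to be tested, and all 3 pointed in opposite directions in the 2 sexes.

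Markers of related interneuron classes gave no common direction. In the parvalbumin lineage list 1 of 9 genes was higher in both sexes, 1 lower and 7 opposite. Tac1, which encodes substance P, had a median of 52.0 CPM in Mut and 8.33 CPM in WT, but its fold change of 0.39 turned to -1.05 without Mut male cell 8. Erbb4, the neuregulin receptor, was found in 7 Mut and 4 WT cells (0.31, SE 1.47). Of 13 transcription factors of the MGE lineage, 2 were higher and 5 lower in both sexes (median -0.53). Lhx6 had medians of 271 CPM in Mut and 350 CPM in WT (-0.53, SE 0.98), and Cux2, a homeodomain factor, 64.8 and 106 CPM (-0.97, SE 1.35). Of 10 genes typical of interneurons from the caudal ganglionic eminence, 4 were higher and 1 lower (median 1.02). Nr2f1, a nuclear receptor of that lineage, was found in 8 Mut and 4 WT cells (1.65, SE 1.78, and 2.80 without WT male cell 9). Cck, the cholecystokinin gene, was found in 7 Mut and 9 WT cells (-0.85, SE 1.12). Cnr1, the cannabinoid receptor, had a fold change of -3.51 that was 0.33 without WT female cell 9.

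Gphn itself gave opposite ratios in the 2 sexes of Sst cells. In females the sum was 8.81 CPM in WT (7.38 to 10.4) and 80.9 CPM in Mut, a log2 ratio of 3.06. In males it was 126 CPM in WT and 2.57 CPM in Mut (1.98 to 3.29), a log2 ratio of -5.15. Over cells it ranged from 0.572 to 212 CPM in Mut (median 8.96) and from 0.297 to 455 CPM in WT (median 17), with 4 of 11 Mut and 7 of 10 WT cells at 10 CPM or more. The genotypes overlapped over nearly their whole range, and the fold change over both sexes was -1.20 with an SE of 4.61. The change of codons does not alter whether the RNA is counted, so Gphn does not check the genotype labels.

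Of 20 scaffold genes of the inhibitory postsynapse, 6 had a higher Mut sum in each sex, 3 had a lower one, and 11 differed in sign, as did 50.4% of all genes tested (median 0.45). Pfn2, an actin-binding profilin that associates with gephyrin, was found in 20 of 21 cells, with a median of 614 CPM in Mut and 579 CPM in WT. Enah (Mena), another actin regulator in contact with gephyrin, was found in 2 Mut and 7 WT cells, with medians of 1.92 and 146 CPM and a fold change of -2.35 (SE 1.59, and -1.46 without WT female cell 3 or -4.33 without Mut male cell 5). Of 11 GABA-A receptor subunits, 2 were higher, 2 lower and 7 opposite. Gabra2, the α2 subunit of young synapses, was found in 3 Mut and 8 WT cells, with medians of 5.15 and 21.3 CPM (-3.52, SE 1.80). WT female cell 9 held 75.1% of the WT Gabra2 counts, and without it the fold change was -0.68. Gabra5 had medians of 134 CPM in Mut and 163 CPM in WT (0.35, SE 1.41). All 6 genes that make, load or take up GABA pointed in opposite directions in the 2 sexes. Gad1 had medians of 438 CPM in Mut and 397 CPM in WT cells (0.29, SE 1.02).

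Among kinases, phosphatases and calpain proteases that act on gephyrin, 1 of 17 genes was higher in both sexes, 3 were lower and 13 opposite (median -0.15). The higher gene was Prkacb, a catalytic subunit of protein kinase A, chosen after its values were seen. It was found in 10 Mut and 6 WT cells, with lowest, median and highest values of 4.2, 258 and 760 CPM in Mut and 0.433, 21.3 and 117 CPM in WT, which overlap below 117 CPM. The Mut sums were 275 (females) and 288 CPM (males) and the WT sums 8.55 and 46.2 CPM (3.82, SE 1.46, edgeR unadjusted p = 0.0143). The phosphatase genes Ppp3ca (-0.72, SE 0.90) and Ppp2ca (0.81, SE 0.93) were at 10 CPM or more in every Sst cell. Of 8 chloride cotransporter and WNK kinase genes, 2 were higher and 4 lower (median -1.32). Slc12a5, the exporter KCC2, had medians of 46.1 CPM in Mut and 25.7 CPM in WT (0.36, SE 1.65), and Wnk2 17.5 and 10.6 CPM. The fold change of Wnk2, -2.02 (SE 2.18), ran against its medians and was -0.58 without WT female cell 3. In the molybdenum cofactor pathway 2 of 5 genes were higher in both sexes and 0 lower. Mocs2, a subunit of molybdopterin synthase, was found in 8 Mut and 4 WT cells, with medians of 73.4 and 3.59 CPM (2.94, SE 1.99).

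**Figure D4:**
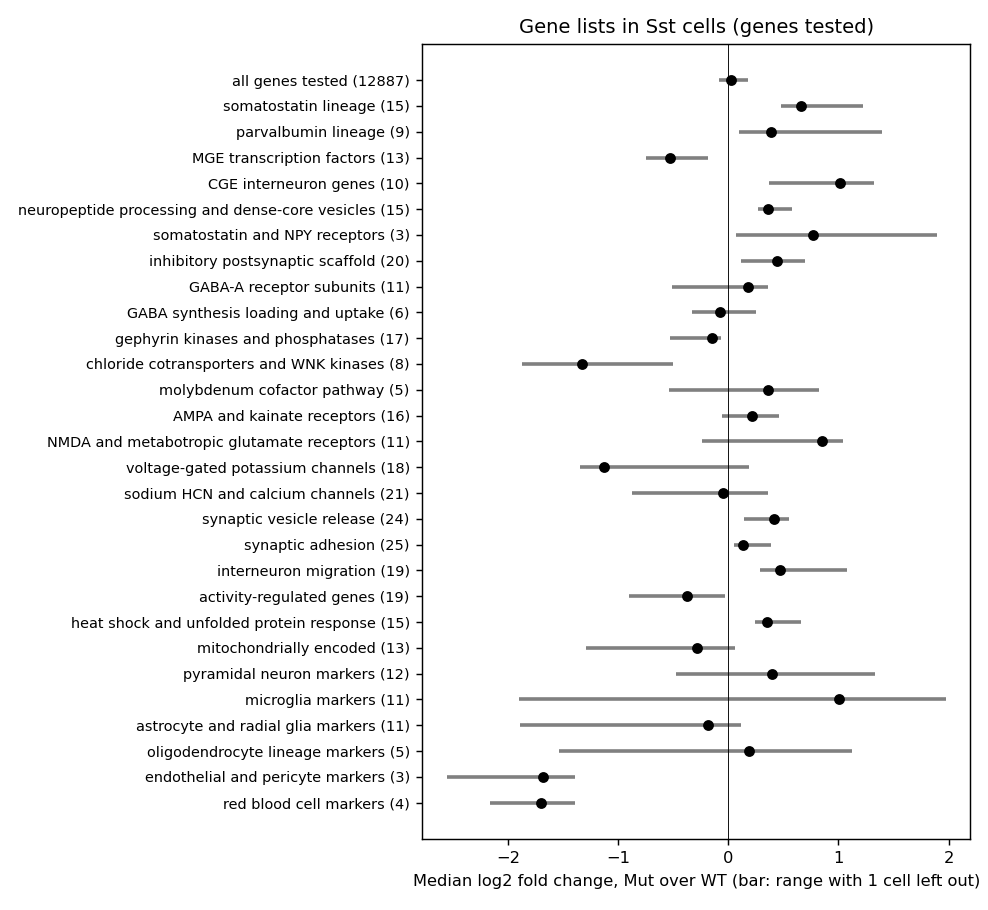
Median log2 fold change (Mut over WT, points) of the tested genes of each of the 28 lists and of all 12887 genes in Sst cells, with bars for the range when any 1 cell is left out. The medians of the all-gene row and the somatostatin lineage are 0.03 and 0.66, and the microglia list has the range -1.90 to 1.97. The somatostatin lineage row includes Sst, which chose the cells.

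Glutamate receptor genes pointed both ways. Of 16 AMPA and kainate receptor genes, 5 were higher in both sexes and 4 lower, and of 11 NMDA and metabotropic receptor genes, 5 were higher and 3 lower. Gria1 was found in 11 Mut and 8 WT cells, with medians of 463 and 356 CPM (0.27, SE 0.98). Gria2, the subunit that limits calcium entry, had medians of 195 CPM in Mut and 541 CPM in WT (-1.03, SE 0.996, and -0.55 without WT female cell 9 or -1.60 without Mut male cell 5). Grin2b, the juvenile NMDA subunit, was found in every cell (-0.28, SE 1.16). Grik1, a kainate receptor subunit, was found in 10 Mut and 4 WT cells, with medians of 115 and 2.44 CPM, yet its fold change was 0.16 (SE 1.40), and the female sums ran the other way, 417 CPM in WT and 131 CPM in Mut. Without WT female cell 9 it was 4.59.

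Of 18 potassium channel genes, 7 were lower in Mut in each sex and 4 were higher, beside 25.4% lower and 24.3% higher over all genes, and the test called none of them (0 called over all genes). Their median of -1.13 ranged from -1.35 to 0.19 with any 1 cell left out. Kcnd3, the A-type channel Kv4.3, was chosen after its values were seen. It was at 207 CPM in WT females, 48.2 in WT males, 2.19 in Mut females and 0.482 in Mut males (-6.60, SE 2.18, edgeR unadjusted p = 0.00522). It was found in 4 of 10 WT and 1 of 11 Mut cells, so most cells of both genotypes lay below 10 CPM. Dpp6, an auxiliary subunit of Kv4 channels, had medians of 50.5 CPM in WT and 4.81 CPM in Mut (-1.84, SE 1.23, and -0.21 without WT female cell 9 or -4.11 without Mut male cell 8). Kcna4, of the same list and also chosen after its values were seen, was higher in both sexes (9.54, SE 4.44). It was found in 2 Mut and 0 WT cells. Of 21 sodium, HCN and calcium channel genes, 9 were higher and 10 lower. Cacna1g, a T-type calcium channel, was found in 4 Mut and 8 WT cells, with medians of 1.38 and 113 CPM (-2.08, SE 1.46, and -5.06 without Mut male cell 5). Hcn3, a pacemaker channel, had a fold change of -5.37 (SE 1.78) and of -0.50 without WT female cell 9, which held 78.2% of the WT counts. Scn3b, a sodium channel β subunit, was found in 10 Mut and 8 WT cells (0.56, SE 1.23).

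For transmitter release, 8 of 24 genes had a higher Mut sum in each sex and 4 a lower one (median 0.42). Snap25, a membrane fusion protein, was at 421 CPM or more in every Mut cell (median 781) and ranged from 8.54 to 1754 CPM in WT (median 437), with a fold change of 1.24 (SE 0.89, and 0.67 without Mut male cell 7). Synaptic adhesion genes were higher in 5 of 25, lower in 4 and opposite in 16. Of 19 genes of interneuron migration, 7 were higher and 2 lower (median 0.47). Nrp1, a receptor for semaphorin guidance cues, was chosen after its values were seen. It was found in 4 Mut and 6 WT cells, with medians of 3.68 and 58.1 CPM (-3.91, SE 1.43, edgeR unadjusted p = 0.0105). WT female cell 9 held 71.1% of the WT Nrp1 counts, and without it the fold change was -2.37. Dcc, of the same list and also chosen after its values were seen, was higher in both sexes (8.21, SE 2.47). It was found in 2 Mut and 0 WT cells, and Mut male cell 7 held 96.0% of its Mut counts.

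Genes induced by neuronal activity stood lower in Mut in both sexes for 7 of 19 and higher for 3 (median -0.38), beside 25.4% lower and 24.3% higher over all genes. Their medians over cells pointed both ways. Egr1 had medians of 302 CPM in Mut and 161 CPM in WT and was found in 7 and 8 cells, while Jun had medians of 11.6 and 229 CPM. Fos had medians of 104.3 CPM in Mut and 497 CPM in WT and was found in 6 and 8 cells (-1.63, SE 1.04, and -3.79 without Mut male cell 19). Nr4a3, a nuclear receptor chosen after its values were seen, was found in 2 Mut and 6 WT cells (-4.44, SE 1.85, and -2.02 without WT female cell 9). Dusp1, a MAP kinase phosphatase, was found in 6 and 6 (-1.50, SE 1.22, and -0.78 without WT male cell 11 or -3.85 without Mut male cell 19). Of 15 heat shock and unfolded protein genes, 4 were higher and 3 lower, and Hspa8, an abundant chaperone, was found in every cell (0.40, SE 0.73). Of the 13 mitochondrially encoded genes 0 were higher and 5 lower in both sexes (median -0.28), with mt-Co1 medians of 857 CPM in Mut and 1665 CPM in WT. Lars2, chosen after its values were seen, gave the same direction. Its cells ranged from 2139 to 31009 CPM in Mut and from 16633 to 203320 CPM in WT (-2.19, SE 0.58, edgeR unadjusted p = 7.46e-04).

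Markers of cells other than interneurons also differed between sums. All 4 tested red blood cell genes were lower in Mut in both sexes (median -1.70), with Hbb-bs at 206 and 247 CPM in WT and 166 and 22 CPM in Mut. Of 10 endothelial and pericyte genes only 3 had enough counts to be tested, and 2 of these were lower. Among them was Pecam1, found in 7 Mut and 10 WT cells. The median Sst cell had 1 marker of this list at 10 CPM or more, so Pecam1 does not by itself mark endothelial cells here. In WT, Pecam1 was highest in male cell 3 (192 CPM, Lars2 and Gm19220 share 29.6%) and lowest in female cell 9 (15.6 CPM, 2.47%). A link with that share was not tested. Neurod6, a transcription factor of pyramidal neurons, was found in 8 Mut and 5 WT cells (2.92, SE 1.51), although of the 12 pyramidal genes tested 1 was higher in both sexes and 3 were lower. Microglia genes were higher in 0 of 11 and lower in 1, and the median of 1.01 moved between -1.90 and 1.97 as single cells were left out. The bearing of these markers on the interneuron genes was not tested.

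The last comparison asked whether the difference between genotypes was another in Sst cells than in the other 41 unmarked cells, 23 Mut and 18 WT. The test of the interaction called 0 of 16159 genes (percent called 0; edgeR, lowest adjusted p = 1), with 477 at an unadjusted p under 0.05 (2.95%), while DESeq2 called 571. In the other cells 26.5% of the genes tested were higher in Mut in both sexes and 22.4% lower. Of the 12 genes named as higher in Mut Sst cells, 3 were higher, 4 lower and 5 opposite in the other cells. Of the 12 named as lower, 5 were higher, 2 lower and 5 opposite. Since these genes were chosen by their difference in Sst cells, a smaller difference elsewhere follows in part from the choice.

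Dhdds, named for its difference in Sst cells, was at 10 CPM or more in 7 of 11 Mut and 0 of 10 WT Sst cells. In cells with less Sst it was found in 4 of 23 Mut and 9 of 18 WT (edgeR interaction p = 0.00202 unadjusted, 1 adjusted). That p follows in part from the choice of the gene. Of the 12 genes named as higher, 11 had an unadjusted interaction p under 0.05, as did 2 of the 12 named as lower. Thumpd1 kept its direction in shares, with 12 of 23 Mut and 5 of 18 WT of the other cells. Zfp637, at 0 of 11 and 6 of 10 in Sst cells, was found in 7 of 23 Mut and 5 of 18 WT of the other cells. Npy had log2 ratios of 1.12 in females and -0.27 in males of the other cells, against 2.55 and 3.28 in Sst cells (interaction p = 0.00593 unadjusted, 1 adjusted). Whether any of these genes differed between classes is not shown by the adjusted test.

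**Figure D5:**
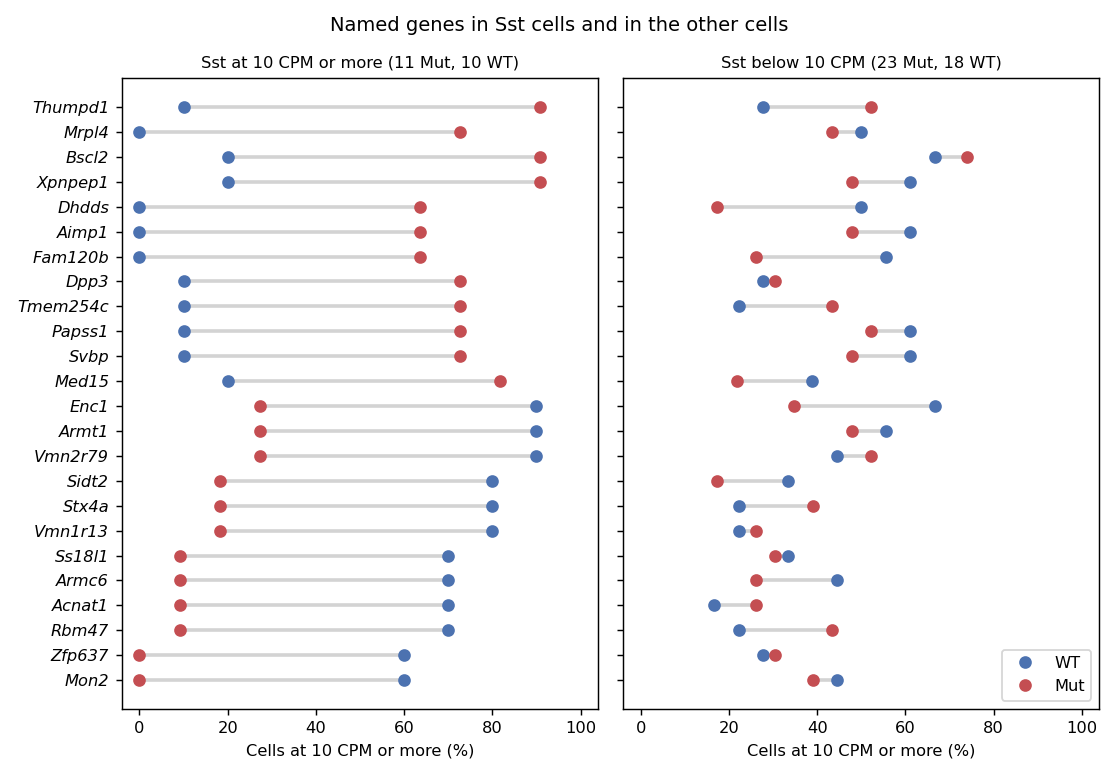
Percentage of cells at 10 CPM or more for the 24 named genes, WT and Mut joined by a grey line, in Sst cells (left) and in the other unmarked cells (right). In Sst cells the genotypes lie at least 50 percentage points apart for each gene, which is how they were ranked; in the other cells Mut is above WT for 4 of the 12 genes named as higher and below for 8.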

How the data were processed

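Cells were sequenced singly by Patch-seq. Per the submitters' processing notes the reads were quantified with kallisto (version not stated) on GRCm38, and per the file headers the authors deposited estimated counts per gene symbol after a quality filter whose criterion is not given in the sources used here. The authors also deposited TPM, used for 1 alternative and the Sst medians. Of the columns, 44 belong to samples not used here.

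CPM in cells is count over column sum. Counts were summed by genotype and sex, rounded after summing (18954100 counts in WT females, 34344150 in WT males, 52071720 in Mut females, 27750110 in Mut males), scaled by TMM and tested with edgeR 4.0.16 (R 4.3.3; quasi-likelihood, terms sex and genotype, filterByExpr by genotype with a minimum count of 10, 12887 of 35825 symbols). The difference from other cells was tested on 8 sums with the genotype-sex group as a block (2 residual degrees of freedom). DESeq2 1.42.0 and limma 3.58.1 served as alternatives. The fit was also run on simulated sums, with less spread between sums than the coefficient of variation of 1.20 found here. That run does not show how many genes the test can miss in these data, and its outcome is not reported here. Intervals (95%, exact Poisson or Clopper-Pearson) cover counting error only, since PCR reads are not independent molecules and cells may share animals. Cell numbers only name cells.

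The members, lists and rules were chosen with earlier results of these data known. Named genes are up to 12 per direction with the same sign in both sexes and in each leave-1-cell-out fit, at 10 CPM or more in at least 50% of the cells of the higher genotype and with the higher median there, ranked by the difference in share of cells (847 higher and 586 lower candidates; genes without a protein passed over), plus up to 4 members of each list. Some list members are not reported here. Kcnd3, Kcna4, Nrp1, Dcc, Prkacb, Gabra2, Enah, Grik1, Nr4a3, Hcn3, Pnoc, Crhbp, Lars2 and Gm19220 fall outside that rule and were chosen after their values were seen.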

Additional observations from a re-analysis of the deposited data

Results flagged for a closer look

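In groups of 4 to 7 Sst cells, 10 of 36 tests (of depth, genes detected, Sst and marker sums) placed the highest or lowest cell far from its neighbours by Dixon's criterion. Chance alone gives about 1 in 20 for independent, normally distributed values. These sums are skewed and come from the same cells, so that rate is no yardstick for the 10 flags.

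Sst stood apart at 2287 CPM in Mut female cell 22 and at 10062 CPM in Mut male cell 7, where the nearest cells had 924 and 464 CPM. Microglia markers summed to 7815 CPM in Mut female cell 20 and to 1660 CPM in WT male cell 6. Oligodendrocyte lineage markers summed to 1916 CPM in Mut female cell 21 and to 87.5 CPM in Mut male cell 19. Mut male cell 8 stood apart in 2 sums, mitochondrially encoded genes at 55476 CPM and astrocyte markers at 1062 CPM. Mut female cell 5 had 12944 genes detected. Lars2 and Gm19220 took 11.4% of the counts of Mut female cell 1, against 4.46% in the nearest Mut female cell.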

How the results depend on the processing

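No paired analysis was possible because the labels give no replicate numbers or animals. The edgeR counts of genes higher and lower in Mut (0 and 0) became 515 and 364 with DESeq2, 2 and 2 with library totals, 1 and 2 without a low-count filter and 1 and 2 with equal weight per cell. The lower count became 2 at an Sst threshold of 50 CPM and 1 without the 3 cells with microglial markers or without Lhx6, Gad1 and Gad2 (an alternative chosen after seeing the data). The interaction count became 571 with DESeq2. Genes at least 4-fold higher and lower in both sexes became 407 and 202 at an Sst threshold of 1 CPM, and 368 and 176 with a pseudocount of 5 CPM.

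Genes 50 points apart in share of cells (108 higher, 73 lower) became 4 and 0 at an Sst threshold of 1 CPM, 10 and 22 at 5 CPM, and 283 and 125 at 50 CPM. Without the 3 cells named above 178 were higher, and with a gene carried at 50 CPM 29 were lower. Leaving out 1 cell at a time gave 0 to 3 genes higher and 0 to 3 lower by edgeR, 0 for the interaction, 586 to 834 and 371 to 531 for 4-fold, 92 to 236 and 46 to 129 for shares, and 12 to 19 lists with a median above that of all genes (17 of 28 with all cells). Beyond those named above, the higher count by share rose past 1.5 times without Mut male cell 5 (206), Mut male cell 8 (209), Mut female cell 14 (176) or Mut female cell 20 (223), and the lower count changed as far without WT female cell 5 (48), Mut female cell 1 (118), Mut female cell 5 (129) or Mut male cell 5 (124). In each of these the smaller group also changes which counts of cells reach 50 points.

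Of 74 log2 fold changes followed, 16 changed sign under another setting. At an Sst threshold of 1 CPM these were Papss1 (-1.35), Gad1 (-0.010), Mocs2 (-0.74) and Neurod6 (-1.01), and at 50 CPM Slc12a5 (-0.29) and Dusp1 (1.70). Without the top Sst cell of each genotype they were Reln (-0.96), Pnoc (-0.24), Cpe (-0.18), Scg2 (-0.62), Gria1 (-0.18) and Grik1 (-1.01). Without a sex term they were Gabra5 (-0.35), Gad1 (-0.0069), Grik1 (-0.34) and Grin2b (0.21), with limma on TPM Erbb4 (-1.82) and Cux2 (0.19), and with equal weight per cell Erbb4 (-0.024). With 1 cell left out the values ran from -0.90 to 2.72 for Reln, -0.57 to 3.37 for Pnoc, -1.05 to 3.58 for Tac1, -0.14 to 1.52 for Erbb4, -1.28 to 0.074 for Cck, -4.18 to 0.33 for Cnr1, -0.25 to 0.65 for Cpe and -0.56 to 0.66 for Scg2. They ran from -1.58 to 2.19 for Gabra5, -0.054 to 0.96 for Gad1, -1.44 to 0.94 for Slc12a5, -0.11 to 0.72 for Gria1, -0.94 to 4.59 for Grik1 and -0.55 to 0.039 for Grin2b. The cause of these changes was not tested. Leaving Lars2 and Gm19220 out of the totals, an alternative also chosen after seeing the data, kept all 21 cells. It was applied to the shares of cells only, and no fold change was fitted that way. Leaving out the 3 cells named above reversed 0 of the genes followed.

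The number of cells limits shares, and the number of animals is not known. Fold changes smaller than their SE also moved by over 1.5 times with 1 cell left out, from -0.81 to -0.18 for Lhx6, -1.76 to -0.47 for Cux2, 0.28 to 1.27 for Nxph1, -1.14 to -0.40 for Ppp3ca, 0.57 to 1.27 for Pcsk1n, 0.30 to 0.95 for Scn3b and 0.24 to 0.66 for Hspa8.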

Other observations

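The 5 kept cells marked as contaminated, all WT, belong to no group compared here. Sst stood at 0.415, 0.494, 266 and 0.263 CPM in the 4 male cells and at 494 CPM in the female cell, so 2 of the 5 would have reached 10 CPM. Their microglia markers summed to 13586, 12356, 12065 and 14206 CPM in the male cells and 3724 CPM in the female cell. Among the Sst cells without that mark, Mut female cell 20 stood above the last of these values, at 7815 CPM.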
